A study of Mus musculus with 8 samples.

Results

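Mitotic spindle, kinetochore and cytokinesis genes were followed across 8 arrays of injured mouse muscle, as a list of 55 genes of cell division. The rule that finds them takes gene symbols and no measured value, but the symbols were chosen with earlier results of these data known. Of the 55, 54 had a row whose platform annotation named that gene alone, and each of the 54 had a single row. Cyclin B1 (Ccnb1) had no such row among those used and is not analysed here. The whole table named 19752 genes in this way. A filter on dim rows, applied to the mean over all 8 arrays at a log2 intensity of 6.35, left 48 of the 55 members among 15007 genes tested. The 6 members below it were Bora, Ttk, Cenpk, Hmmr, Kif4 and Kif20b.

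The arrays measured RNA from whole tibialis anterior, a muscle at the front of the shin, in male C57BL/6 mice. Mice of both groups carried Foxp3-Cre, which expresses the recombinase in regulatory T cells. One group was ST2 flox, so that the interleukin-33 receptor ST2 was targeted for deletion in those cells, and the other was ST2 WT. The muscle had been frozen with a cooled metal probe for 8 seconds, and it was taken 8 days later. Age was given as 10 weeks in the sample labels and as 2 months in the series text. Each group had 4 arrays, 1 per sample, numbered 1 to 4. The labels do not say that samples came from separate animals, so the errors and p-values below measure the spread between samples, which may be technical.

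A cell that divides must separate its copied chromosomes and then cut itself apart. Cyclins of the A and B types switch on the kinase Cdk1, kinesin motors and their partners build a bipolar spindle, and kinetochores tie each chromosome to spindle microtubules. A checkpoint holds anaphase until every kinetochore is attached, after which the anaphase-promoting complex triggers the loss of cyclin and securin, and a contractile ring closes at the spindle midzone. Transcripts of these genes peak in G2 and M phase and are scarce in resting cells. Muscle fibres themselves do not divide, so in regenerating muscle such transcripts come from myoblasts, immune cells, fibroblasts and endothelial cells that are cycling. In a whole-tissue sample, fewer cycling cells and less mitotic RNA per cell cannot be told apart.

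Median intensity per array lay between 185 and 189. All 12 muscle fibre markers (Acta1, Ckm, Myh4 and others) passed the filter, with a median log2 level of 13.38. Over all 15007 genes limma called 0 between ST2 flox and ST2 WT at an adjusted p under 0.05 (0.0%). In flox 7330 genes (48.8%) had the higher mean, and the median difference over all genes was 0.00.

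Most mitotic genes had a higher mean in ST2 flox muscle, by small amounts, and none passed the threshold. Of the 48 tested members, 44 had a higher mean in flox (91.7%, against 48.8% of all genes tested), and the median difference was 0.20 log2. In limma 0 members passed an adjusted p of 0.05 over all genes, with a smallest adjusted p of 0.912. At an unadjusted p under 0.05 there were 26 members, or 54.2%, all of them higher in flox, where the same count over all genes was 2.03% higher and 1.77% lower. Knl1, Cdk1, Ccna2, Anln, Kif11, Kif23, Nusap1, Aspm and Ncaph, 9 members (18.8%), had every flox value above every WT value, as did 1.14% of all genes. The reverse arrangement held for 0 members and 0.826% of all genes. The 4 members with a lower mean in flox were Aurka, Spc24, Pttg1 and Espl1, named here after their values were seen. Single arrays bore on the count of 26, which was 10 when flox array 2 was left out (0.96% of all genes then) and 12 when flox array 3 was (1.61%). Leaving out WT array 1 gave 17 higher (1.05% of all genes) and 1 lower. Leaving out flox array 4 gave 26 again, while the share of all genes went from 2.03% to 10.6%.

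The mean over the list, taken for each array from log2 values centred per gene, was -0.082 on flox array 1, 0.23 on flox array 2, 0.19 on flox array 3 and 0.028 on flox array 4. On WT arrays 1 to 4 it was -0.11, -0.10, -0.067 and -0.087. Flox arrays 2 and 3 thus stood well above the WT arrays, flox array 4 stood modestly above them, and flox array 1 lay inside the WT range. The flox mean was higher by 0.18 log2 (SE 0.07, n = 4 and 4), which is 1.13-fold. Leaving out flox array 2 gave 0.14, and leaving out flox array 1 gave 0.24. With numbers 1 and 2 alone and with numbers 3 and 4 alone it was 0.18 each. Because of how the list was chosen, its mean is given without a test.

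**Figure D1:**
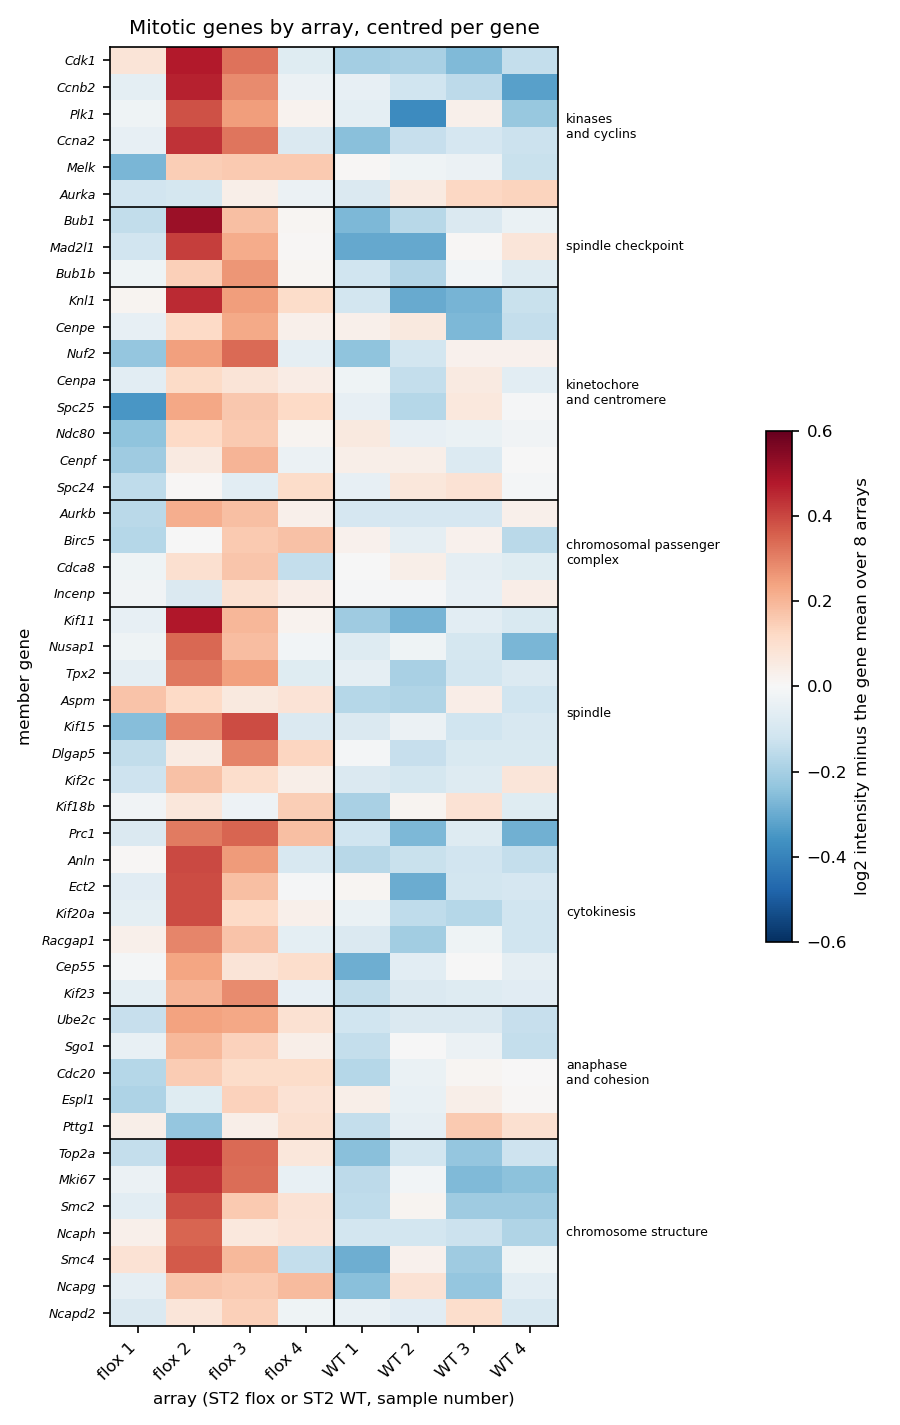
Heat map of the 48 tested members (rows, ordered by role and then by difference) on the 8 arrays (columns, ST2 flox at left of the line and ST2 WT at right). Colour gives log2 intensity minus the mean of that gene over the 8 arrays, red above and blue below, and flox arrays 2 and 3 are red for most genes while flox array 1 resembles the WT arrays.

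The members shared their highest arrays. Flox array 2 had the highest value of all 8 arrays for 27 members (56.2%) and flox array 3 for 14 (29.2%), where these arrays were highest for 14.5% and 7.11% of all genes. Flox arrays 2 and 3 together were the top pair for 34 members (70.8%), against 3.98% of all genes. Compared with the highest WT array of each gene, flox array 3 was above it for 44 members (91.7%, against 19.7% of all genes). The same held for flox array 2 in 40 members (83.3%, against 27.1%) and flox array 4 in 29 (60.4%, against 22.9%). Only 12 members were above it on flox array 1. For flox array 1 that is 25% of members, against 31.8% of all genes. Flox arrays were more spread than WT arrays for most members: the SD over the 4 arrays was larger in flox than in WT for 41 of the 48 members (85.4%), with a median SD of 0.18 in flox and 0.083 in WT. Over all genes the SD was larger in flox for 66.1%, with medians of 0.11 and 0.082.

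Genes of late cell division commonly carry a short promoter element, the cell cycle homology region (CHR), which repressor and activator complexes of the cell cycle bind, together with CCAAT boxes bound by the factor NF-Y. The promoters of the members were searched for both, and a link to their shared highest arrays was not tested. RefSeq promoter windows of build GRCm38.p6, from 250 bases before to 50 bases after the gene start, were found for 46 of the 55 members, matched by symbol. The CHR was searched as TTTGAA or TTCGAA and the NF-Y box as CCAAT, each on both strands, and 1 window of a member (Cdca8) had a CHR match and an NF-Y box that shared a base. On the opposite strand TTTGAA reads TTCAAA and CCAAT reads ATTGG. A CHR match was present for 36 of the 46 members (78.3%), against 21.7% of the 27025 genes in the table and 16.4% of the 11846 genes with a window that were tested on the arrays. An NF-Y box was present for 32 members (69.6%), against 41.1% and 41.4%, and both for 29 (63.0%), against 8.61% and 6.58%. For 32 members a CHR match began within 40 bases of the start, against 5.2% of genes in the table. A match is a description of letters and not evidence of a bound site.

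The stretches below are the 120 bases just before the start of 6 members, with every match in capitals. These members were taken by the rule for named genes given under processing and had both kinds of match there. Cdk1 lies at chr10:69352913-69353032, minus strand, Kif11 at chr19:37376262-37376381, plus strand, Prc1 at chr7:80294356-80294475, plus strand, Top2a at chr11:99024190-99024309, minus strand, Ube2c at chr2:164769809-164769928, plus strand and Espl1 at chr15:102296173-102296292, plus strand. They are written 5′ to 3′ on the strand of the gene.
Cdk1: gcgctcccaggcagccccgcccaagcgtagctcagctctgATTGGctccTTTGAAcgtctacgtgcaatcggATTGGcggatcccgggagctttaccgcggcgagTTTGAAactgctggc
Kif11: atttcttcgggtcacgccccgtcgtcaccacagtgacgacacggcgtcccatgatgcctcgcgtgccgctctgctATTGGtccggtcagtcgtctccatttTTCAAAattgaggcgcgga
Prc1: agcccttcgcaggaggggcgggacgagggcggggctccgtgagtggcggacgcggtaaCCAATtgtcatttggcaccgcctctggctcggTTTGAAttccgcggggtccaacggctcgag
Top2a: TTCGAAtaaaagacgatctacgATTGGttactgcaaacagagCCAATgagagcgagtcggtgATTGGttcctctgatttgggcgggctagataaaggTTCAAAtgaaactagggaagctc
Ube2c: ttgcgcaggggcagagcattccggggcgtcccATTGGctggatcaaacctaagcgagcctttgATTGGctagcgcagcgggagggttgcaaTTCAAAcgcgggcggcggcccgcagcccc
Espl1: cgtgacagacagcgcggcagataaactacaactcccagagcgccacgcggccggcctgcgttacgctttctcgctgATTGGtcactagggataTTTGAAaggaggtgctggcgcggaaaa
In the printed stretch of Prc1 the CHR match begins 30 bases before the start and the NF-Y box 62 bases before it. The pair thus lies 32 bases apart. Prc1 has another window, with a different start, from which the same matches begin at -5 and -37. In the printed stretch of Cdk1 a pair of CHR matches begins at -71 and -15 and a pair of NF-Y boxes at -80 and -48. Cyclin B2 (Ccnb2), not printed because the rule for named genes did not take it, has NF-Y boxes at -87, -54 and -21. Its nearer CHR match begins at base 5 after the start.

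**Figure D2:**
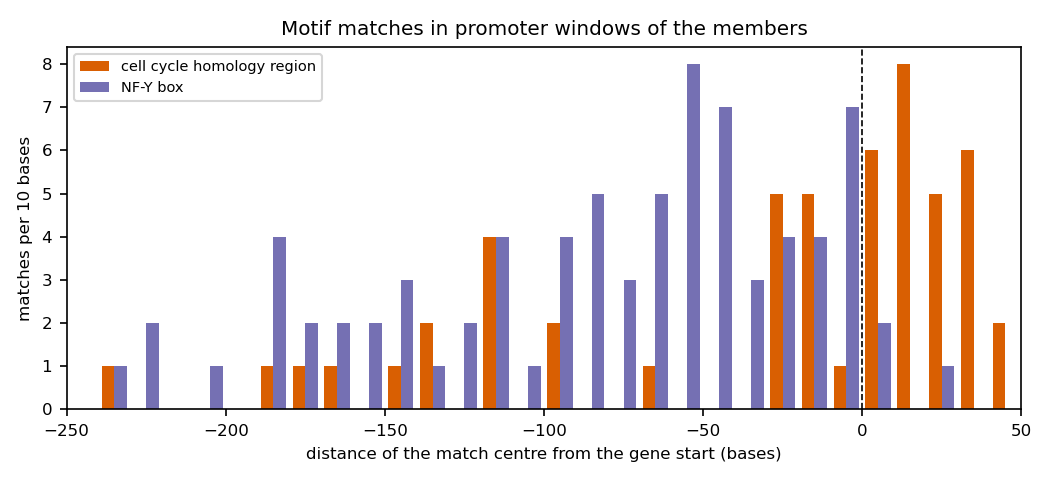
Positions of motif matches in the 51 promoter windows of the 46 members with a window (4 members had more than 1), as the distance in bases of the match centre from the gene start (dashed line), counted per 10 bases. The 52 cell cycle homology region matches (orange) centre on a median of 5.0 bases after the start, and the 78 NF-Y box matches (purple) on a median of -65.0. Matches are counted in each window, so a site in overlapping windows of the same member enters more than once.

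The values of members with both motifs were set beside those of other genes with both. Of the 26 tested members with both motifs, 24 (92.3%) had the higher mean in flox, and their median difference was 0.22. Over all 48 tested members, with or without the motifs, it was 44 (91.7%), with a median of 0.20. The part of the motifs in these differences was not tested. Among the 753 other genes tested that had both motifs, 387 (51.4%) were higher in flox by mean, with a median difference of 0.00. Aurka, the kinase that matures centrosomes, had NF-Y boxes at -51 and -19 and a CHR match at 33, and its mean was lower in flox.

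Kinases and cyclins start mitosis. Of the 6 tested (Ccnb1 and Bora aside), 5 had the higher mean in flox (83.3%, against 48.8% of all genes). At an unadjusted p under 0.05 there were 4, all higher (66.7%, against 2.03% of all genes). The group mean was 0.22 log2 higher (SE 0.09). Cdk1, the master kinase of mitotic entry, had log2 intensities of 8.18, 8.58, 8.43 and 8.03 on flox arrays 1 to 4 and 7.90, 7.91, 7.84 and 7.96 on WT arrays 1 to 4. The lowest flox array thus lay just above the highest WT array. The difference was 0.40 (SE 0.11), or 1.32-fold (limma unadjusted p 0.00372, adjusted 0.912).

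Plk1, a kinase of spindle assembly and mitotic exit, read 7.78, 8.19, 8.06 and 7.83 on the flox arrays and 7.75, 7.43, 7.84 and 7.58 on the WT arrays. Flox arrays 2 and 3 were above every WT array and the other pair was not. Its difference was 0.32 (SE 0.11, limma unadjusted p 0.0171). Ccnb2 and Ccna2, cyclin partners of Cdk1, differed by 0.33 (SE 0.12) and 0.31 (SE 0.11). Melk, a kinase of cycling progenitor cells, had the largest p of this group, with a difference of 0.09 (SE 0.10, limma unadjusted p 0.362). It read 6.58 on flox array 1, 7.0 on flox array 2 and 7.01 on both others, against 6.86, 6.83, 6.82 and 6.72 on the WT arrays, so flox array 1 was below all WT arrays and the other 3 above them. Leaving out flox array 1 gave 0.20 and leaving out flox array 3 gave 0.05. Aurka went the other way, with 7.46, 7.47, 7.61 and 7.54 on the flox arrays and 7.49, 7.63, 7.70 and 7.71 on the WT arrays, a difference of -0.11 (SE 0.07, limma unadjusted p 0.113).

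**Figure D3:**
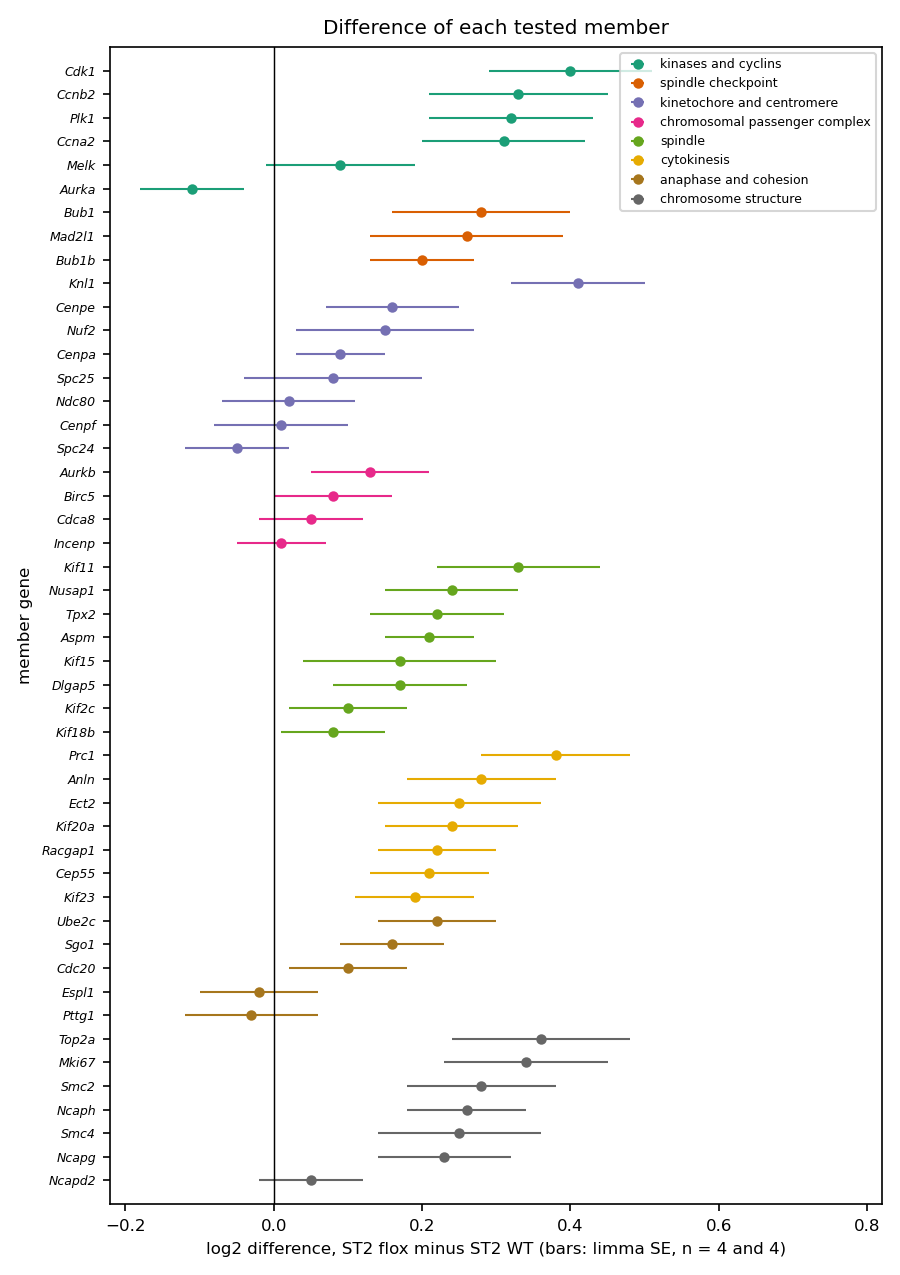
Difference in log2 intensity, ST2 flox minus ST2 WT, for each of the 48 tested members (points, coloured by role) with limma's standard error (bars, n = 4 and 4). Cytokinesis and chromosome structure members lie right of 0 throughout, from 0.19 to 0.38 and from 0.05 to 0.36, while kinetochore members spread from -0.05 to 0.41.

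The spindle checkpoint delays anaphase until kinetochores are attached. Its 3 tested members all had a higher mean in flox (100%, against 48.8% of all genes), with a group mean 0.25 higher (SE 0.12). Bub1b, the checkpoint protein BubR1, read 6.98, 7.15, 7.27 and 7.02 on the flox arrays and 6.89, 6.83, 6.99 and 6.93 on the WT arrays. Flox array 1 lay within the WT values and the other 3 above them, for a difference of 0.20 (SE 0.07, limma unadjusted p 0.0231). Bub1, the kinase that recruits checkpoint proteins, read 6.93, 7.59, 7.26 and 7.09 against 6.81, 6.91, 6.99 and 7.04. Flox array 2 stood far above the rest, and the difference of 0.28 (SE 0.12, limma unadjusted p 0.0455) was 0.16 without it. Mad2l1, which forms the inhibitor of the anaphase-promoting complex, read 7.98, 8.51, 8.32 and 8.10 against 7.79, 7.79, 8.10 and 8.17. The WT arrays were split here, with arrays 3 and 4 level with flox array 4. Its difference was 0.26 (SE 0.13, limma unadjusted p 0.0660), and 0.17 without flox array 2.

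Kinetochore and centromere genes were uneven. Of the 8 tested, 7 had a higher mean in flox (87.5%, against 48.8% of all genes). Only Knl1 had an unadjusted p under 0.05 (12.5%, against 2.03% of all genes higher). That count was 4 without flox array 1 (1.85% of all genes higher then) and 2 without WT array 2 (1.84%). The median difference of the group was 0.09, and the group mean differed by 0.11 (SE 0.08). It was 0.18 once flox array 1 was left out, and 0.07 with flox array 2 or flox array 3 left out. Knl1, the outer kinetochore scaffold that docks checkpoint kinases, had the largest difference of all 48 tested members. It read 6.71, 7.14, 6.94 and 6.80 on the flox arrays and 6.58, 6.39, 6.41 and 6.56 on the WT arrays. The groups did not overlap, and the difference was 0.41 (SE 0.09), or 1.33-fold (limma unadjusted p 0.00126, adjusted 0.912).

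The microtubule-binding Ndc80 complex of the outer kinetochore showed smaller differences. Ndc80, Nuf2, Spc24 and Spc25, its 4 subunits, differed by 0.02 (SE 0.09), 0.15 (SE 0.12), -0.05 (SE 0.07) and 0.08 (SE 0.12). Cenpe, the kinesin that carries chromosomes to the spindle equator, read 6.36, 6.53, 6.64 and 6.44 against 6.44, 6.47, 6.14 and 6.27. The groups overlapped, and the difference of 0.16 (SE 0.09, limma unadjusted p 0.0918) was 0.10 without WT array 3. Cenpf, a large protein of the outer kinetochore, showed the smallest difference of the group. It read 6.25, 6.52, 6.67 and 6.43 against 6.50, 6.50, 6.38 and 6.46, a difference of 0.01 (SE 0.09, limma unadjusted p 0.948) whose sign was negative with flox array 3 (-0.06), WT array 3 (-0.02) or flox array 2 (-0.01) left out. Several rows of this group were dim: Cenpe and Cenpf averaged 6.41 and 6.46, close to the filter at 6.35, and Knl1 averaged 6.69.

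The chromosomal passenger complex corrects faulty attachments and later marks the midzone. All 4 members were tested and had a higher mean in flox (100%, against 48.8% of all genes). At an unadjusted p under 0.05 there were 0 (against 2.03% of all genes higher), and the group mean differed by 0.07 (SE 0.05). It was 0.11 with flox array 1 left out and 0.03 with flox array 3 left out. Aurkb, its kinase, read 7.82, 8.20, 8.16 and 8.01 against 7.88, 7.88, 7.88 and 8.01. Its difference was 0.13 (SE 0.08, limma unadjusted p 0.139), and 0.21 without flox array 1, which lay below all WT arrays. Birc5, or survivin, read 6.62, 6.79, 6.95 and 6.97 against 6.82, 6.74, 6.82 and 6.63. The groups overlapped, with a difference of 0.08 (SE 0.08, limma unadjusted p 0.376) that was 0.03 with flox array 4 left out and 0.15 with flox array 1 left out. Incenp, the scaffold of the complex, read 7.09, 7.02, 7.20 and 7.15 against 7.10, 7.10, 7.06 and 7.15. It differed by 0.01 (SE 0.06, limma unadjusted p 0.845), and by -0.02 without flox array 3.

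Spindle motors and assembly factors had a higher mean in flox for all 8 tested, 4 of them at an unadjusted p under 0.05, and the group mean differed by 0.19 (SE 0.07). The count of 4 was 7 with flox array 1 left out, and 2 with flox array 2, flox array 3 or WT array 4 left out. Aspm, which holds spindle poles together, read 6.75, 6.70, 6.64 and 6.66 on the flox arrays and 6.41, 6.40, 6.62 and 6.46 on the WT arrays. It was the only tested member with flox array 1 highest, and its flox values were closely spaced. The difference was 0.21 (SE 0.06, limma unadjusted p 0.00708). Kif11, the motor that pushes spindle poles apart, read 7.50, 8.03, 7.75 and 7.57 against 7.34, 7.27, 7.49 and 7.46. The groups just failed to touch, and the difference was 0.33 (SE 0.11, limma unadjusted p 0.0130). Kif18b, which trims astral microtubules, read 7.13, 7.22, 7.12 and 7.30 against 6.96, 7.17, 7.24 and 7.08. These values were mixed between the groups, with a difference of 0.08 (SE 0.07, limma unadjusted p 0.303), 0.03 without WT array 1 and 0.04 without flox array 4.

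Cytokinesis genes were the only role group with every tested member at an unadjusted p under 0.05, and this rested on the filter. Without it, the group members Kif4 and Kif20b had limma unadjusted p-values of 0.00247 and 0.261. All 7 tested had higher means in flox and an unadjusted p under 0.05 (100%, against 2.03% of all genes), with differences from 0.19 to 0.38 and a group mean 0.25 higher (SE 0.08), or 1.19-fold. The count of 7 was 2 with flox array 2 left out (0.96% of all genes higher then). It was 3 with flox array 3 (1.61%) or WT array 2 (1.84%) left out, and 4 with WT array 3 (1.54%) left out. Prc1, which bundles the antiparallel microtubules of the midzone, read 6.70, 7.10, 7.14 and 6.97 on the flox arrays and 6.67, 6.52, 6.71 and 6.50 on the WT arrays. Flox array 1 was level with the highest WT arrays and the others were above, for a difference of 0.38 (SE 0.10), or 1.30-fold (limma unadjusted p 0.00308, adjusted 0.912). Anln, the anillin that scaffolds the contractile ring, read 7.25, 7.64, 7.50 and 7.15 against 7.08, 7.11, 7.13 and 7.10. Its WT arrays were tightly spaced, with an SD of 0.02, and the difference was 0.28 (SE 0.10, limma unadjusted p 0.0174). Kif23, the motor of the centralspindlin complex, had the largest p of the group. It read 7.46, 7.72, 7.80 and 7.47 against 7.37, 7.43, 7.44 and 7.45, a difference of 0.19 (SE 0.08, limma unadjusted p 0.0467) with no overlap. Racgap1, its partner in that complex, and Ect2, which the complex recruits to switch on contraction, differed by 0.22 (SE 0.08) and 0.25 (SE 0.11).

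Genes of anaphase and sister cohesion were divided. Of the 5 tested, 3 had the higher mean in flox and 2 an unadjusted p under 0.05, and the group mean differed by 0.09 (SE 0.06). Ube2c, the ubiquitin-conjugating enzyme of the anaphase-promoting complex, read 7.80, 8.18, 8.17 and 8.03 against 7.82, 7.85, 7.85 and 7.80. Flox array 1 lay with the WT arrays and the other 3 above them, for a difference of 0.22 (SE 0.08, limma unadjusted p 0.0246). Sgo1, listed under its older symbol Sgol1, guards centromeric cohesion. It read 6.40, 6.64, 6.58 and 6.48 against 6.30, 6.44, 6.41 and 6.30, a difference of 0.16 (SE 0.07, limma unadjusted p 0.0415). Separase and its inhibitor had means slightly below WT. Espl1, the protease separase that cleaves cohesin, read 6.84, 6.95, 7.16 and 7.11 against 7.06, 6.98, 7.06 and 7.03. It differed by -0.02 (SE 0.08, limma unadjusted p 0.810), and it was 0.04 with flox array 1 left out and 0.02 under quantile normalization or cyclic loess. Pttg1, the securin that inhibits it, differed by -0.03 (SE 0.09).

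Chromosome structure genes compact and untangle the copied chromosomes. All 7 tested had a higher mean in flox (100%, against 48.8% of all genes), with a group mean 0.25 higher (SE 0.09). Of these, 6 had an unadjusted p under 0.05 (85.7%, against 2.03% of all genes higher). Ncaph, the kleisin that closes the condensin I ring, read 7.03, 7.35, 7.06 and 7.08 on the flox arrays and 6.89, 6.89, 6.87 and 6.82 on the WT arrays. The groups did not overlap and the difference was 0.26 (SE 0.08, limma unadjusted p 0.00592). Top2a, the topoisomerase that decatenates sister chromatids, read 7.51, 8.11, 7.99 and 7.72 against 7.40, 7.54, 7.42 and 7.53. Flox array 1 lay inside the WT range, and the difference was 0.36 (SE 0.12), or 1.28-fold (limma unadjusted p 0.0107). Mki67, the common marker of cycling cells, differed by 0.34 (SE 0.11). Ncapd2, another condensin I subunit, differed less than Ncaph. It read 8.05, 8.21, 8.28 and 8.11 against 8.09, 8.07, 8.24 and 8.04, a difference of 0.05 (SE 0.07, limma unadjusted p 0.506) that was 0.01 with flox array 3 left out and 0.09 with flox array 1 or WT array 3 left out.

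**Figure D4:**
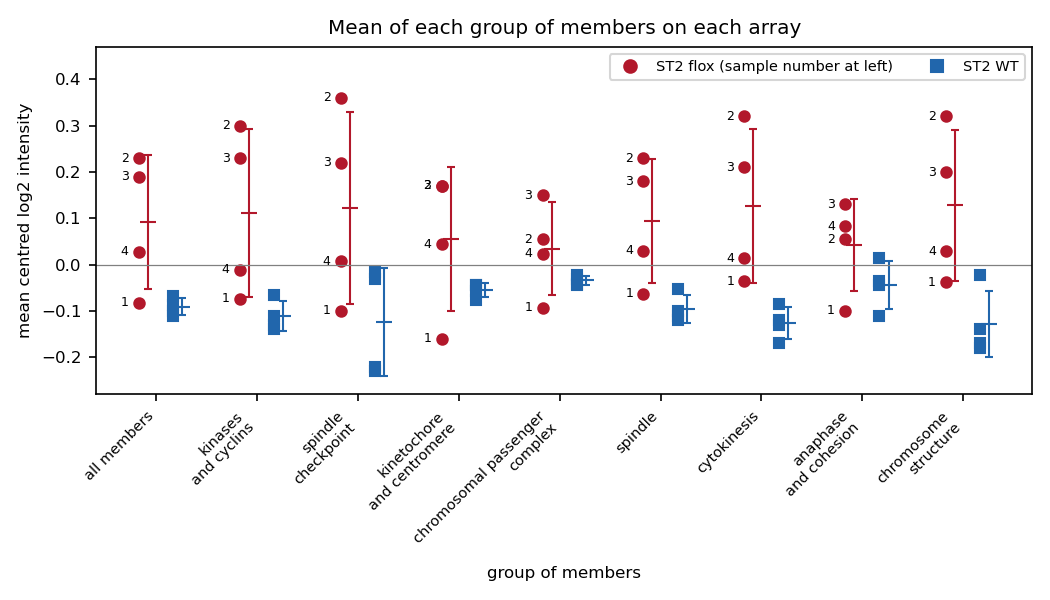
Mean of log2 values centred per gene, for all 48 tested members and for each role group, on each ST2 flox array (red circles, with the sample number) and ST2 WT array (blue squares). Bars beside the points give the group mean and SD over 4 arrays, and flox arrays 2 and 3 lead in most groups while flox array 1 lies below every WT array in the kinetochore group (-0.16).

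Set against each other array by array, cytokinesis members differed more between flox and WT by mean than kinetochore members did. The values are centred per gene, so their signs do not compare the levels of the role groups. The cytokinesis mean minus the kinetochore mean was 0.13, 0.15, 0.04 and -0.03 on flox arrays 1 to 4 and -0.08, -0.10, -0.03 and -0.08 on WT arrays 1 to 4. Flox arrays 1 to 3 exceeded every WT array and flox array 4 was level with the highest one. This difference between role groups was 0.14 higher in flox (SE 0.04). It was 0.22 with numbers 1 and 2 alone and 0.06 with numbers 3 and 4 alone. Spindle minus kinetochore differed by 0.08 (SE 0.03), and by 0.14 and 0.02 in the same subsets. Cytokinesis minus spindle differed by 0.06 (SE 0.02), and by -0.08 with the filter at the 50th percentile, which left 1 member in each of these groups. The role groups were not tested against each other, since the members were chosen with results known. Median log2 level was 6.66 in the kinetochore group, 6.86 in the spindle group and 7.38 in the cytokinesis group. The part of row brightness in these differences was not tested.

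The 6 members below the filter, not tested in the main comparison, each had a higher mean in flox. Without the filter, 44.1% of 19752 genes did. Kif4, the chromokinesin that works with Prc1 at the midzone, read 5.58, 5.52, 5.54 and 5.61 on the flox arrays and 5.33, 5.34, 5.38 and 5.34 on the WT arrays, a difference of 0.21 (SE 0.05). Hmmr, a spindle assembly factor, differed by 0.26 (SE 0.09), Cenpk of the inner kinetochore by 0.20 (SE 0.08) and Bora, an activator of Plk1, by 0.15 (SE 0.06). Kif20b differed by 0.13 (SE 0.11) and the checkpoint kinase Ttk by 0.07 (SE 0.08). Kif4, Hmmr and Bora did not overlap between the groups, which made 12 of 54 members (22.2%) without the filter, against 0.992% of 19752 genes. With no filter, 30 of 54 members had an unadjusted p under 0.05 in limma, all higher, against 1.79% of 19752 genes, and 0 passed the adjusted threshold.

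Other genes of the mitotic pathway had mostly higher means in flox too. Of 70 further mitosis genes, 49 were tested, and 40 had higher means in flox (81.6%, against 48.8% of all genes). The median difference was 0.07. In limma 0 passed the adjusted threshold, and 9 had an unadjusted p under 0.05, all higher (18.4%, against 2.03% of all genes). That count was 15 of 49 with flox array 4 left out, where 10.6% of all genes were higher at that p. It was 3 with flox array 2 left out (0.96% of all genes higher then) and 4 with flox array 3 left out (1.61%). With WT array 1 (1.05%) or WT array 2 (1.84%) left out it was 5. Cks2, a small subunit of cyclin-dependent kinases, read 8.32, 8.65, 8.54 and 8.04 on the flox arrays and 7.89 to 8.08 on the WT arrays. Flox array 4 lay within the WT range. The difference was 0.42 (SE 0.12), and its other rows gave 0.39 and 0.42. Kif22, a chromokinesin, had flox values of 6.94 to 7.01 and WT values of 6.71 to 6.89, a difference of 0.18 (SE 0.06).

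Of 28 regulators of mitotic entry and its transcription, 27 were tested. Of these, 23 had a higher mean in flox (85.2%, against 48.8% of all genes, median difference 0.10). Again 0 passed in limma, with 4 at an unadjusted p under 0.05, all higher (14.8%, against 2.03% of all genes). That count was 9 of 27 without flox array 4, where 10.6% of all genes were higher at that p. It was 2 without any single WT array (1.05% to 1.84% of all genes) and 1 without flox array 2 (0.96%) or 3 (1.61%). Foxm1, the transcription factor that activates G2 and M phase genes, read 7.05, 7.30, 7.35 and 7.15 against 7.05, 6.95, 7.07 and 6.97. Flox array 1 was level with the WT arrays, and the difference was 0.20 (SE 0.07). Ccnf, a cyclin of a ubiquitin ligase, differed by 0.17 (SE 0.06).

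DNA replication genes, which act in the preceding S phase, had a higher mean in flox for 24 of 29 tested (82.8%, against 48.8% of all genes). Their median difference was 0.06. In limma 0 passed and 4 had an unadjusted p under 0.05, all higher (13.8%, against 2.03% of all genes). The count was 9 of 29 with flox array 4 left out, where 10.6% of all genes were higher at that p. It was 2 with flox array 3 (1.61% of all genes) or WT array 1 (1.05%) left out, and 1 with flox array 2 left out (0.96%). Mcm4 and Mcm6, subunits of the replicative helicase, differed by 0.30 (SE 0.08) and 0.27 (SE 0.10). Inhibitors of the cycle were mixed. Of 12 tested, 7 were higher (58.3%, against 48.8% of all genes) and 5 lower, and 0 passed in limma. At an unadjusted p under 0.05 there was 1 in each direction, against 2.03% of all genes higher and 1.77% lower. These were Cdkn2c, which blocks the G1 kinases and differed by 0.19 (SE 0.08), and Cdkn2a, a marker of senescence, which differed by -0.14 (SE 0.06). Without flox array 4 the count was 4, where genes at that p over the whole table were 3012 in place of 569. It was 0 without any other flox array or WT array 2, and 1 without WT array 1, 3 or 4.

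Markers of the cells that could be dividing were read beside these genes. For the counts of higher means given with each list, the share of all genes tested was 48.8%. The macrophage list (18 of 19 tested, 17 higher in flox) had means of 0.34, 0.41, 0.041 and -0.41 on flox arrays 1 to 4 and -0.16 to 0.03 on the WT arrays, and a summed intensity of 13331 to 22034 in flox and 15012 to 18124 in WT. Its flox order differed from that of the mitotic list: flox array 1, lowest for mitotic genes, was second highest for macrophage markers, and flox array 4 was lowest. The T cell list (11 of 15 tested, 10 higher) had means of 0.18, 0.30, 0.062 and -0.10 on the flox arrays and -0.12 to -0.10 on the WT arrays, with a summed intensity of 1814 to 2489 in flox and 1749 to 1841 in WT. The T cell mean was higher in flox by 0.22 (SE 0.09) and the macrophage mean by 0.19 (SE 0.19), beside 0.18 (SE 0.07) for the mitotic list. At an unadjusted p under 0.05 there was 1 of the 18 macrophage markers, higher (5.56%, against 2.03% of all genes). Among the 11 T cell markers there were 3, all higher (27.3%). Cd3g, a chain of the T cell receptor complex, read 7.63, 7.92, 7.36 and 6.27 on the flox arrays and 6.32, 6.35, 6.51 and 6.60 on the WT arrays. Flox arrays 1 to 3 were above every WT array and flox array 4 below them all. The difference was 0.85 (SE 0.28, limma unadjusted p 0.0131, adjusted 0.912). Il7r and Cd4 differed by 0.29 (SE 0.10) and 0.20 (SE 0.08). Of the other chains of that complex, Cd3e differed by 0.06 (SE 0.05), and Cd3d lay below the filter at -0.10 (SE 0.08).

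The satellite cell and myoblast list (14 of 14 tested, 11 higher) had means of -0.14, -0.014, 0.12 and 0.14 on the flox arrays and -0.07 to -0.00 on the WT arrays, with a summed intensity of 16152 to 18550 in flox and 16730 to 17345 in WT. Here flox arrays 3 and 4 were high and flox array 1 low. Among its markers 1, Cxcr4, had an unadjusted p under 0.05, higher (7.14%, against 2.03% of all genes). Cxcr4 differed by 0.23 (SE 0.06, limma unadjusted p 0.00298, adjusted 0.912). Every flox value of it was above every WT value, as for 1.14% of all genes. At that p there were 0 fibro-adipogenic progenitor and 0 endothelial markers. Fibro-adipogenic progenitor markers (10 of 12 tested, 8 higher) had means of 0.22, 0.12, 0.10 and -0.27 on the flox arrays and -0.11 to 0.07 on the WT arrays, with sums of 26495 to 34814 and 28892 to 32109. Endothelial markers (12 of 12 tested, 9 higher) stayed between -0.04 and 0.09 in flox and between -0.08 and 0.02 in WT, with sums of 9966 to 11138 and 9781 to 10465. None of these lists placed the 4 flox arrays in the order of the mitotic list, which from high to low was 2, 3, 4 and 1. Nor did the lists of other mitosis genes, mitotic entry regulators and DNA replication genes, where the order was 2, 3, 1 and 4. A different order thus does not set a cell type list apart from genes of the same process. The part of each cell type in the mitotic values was not tested.

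B cell markers had only 3 of 8 tested (2 higher), with 4 below the filter, among them Ms4a1 and Cd79a. Their means lay between -0.04 and 0.05 in flox and between -0.05 and 0.02 in WT, with sums of 366 to 404 and 361 to 380. Neutrophil markers had 4 of 11 tested (3 higher), with 7 below the filter, Ly6g and S100a8 among them. Their means were 0.30, 0.31, -0.089 and -0.21 on the flox arrays and -0.26 to 0.23 on the WT arrays, with sums of 605 to 1039 and 591 to 967. Muscle fibre markers had 4 of 12 higher in flox, with means of -0.04 to 0.06 in flox and -0.09 to 0.09 in WT and sums of 116627 to 124226 and 115234 to 125197. The genotypes overlapped in all 3 of these lists.

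**Figure D5:**
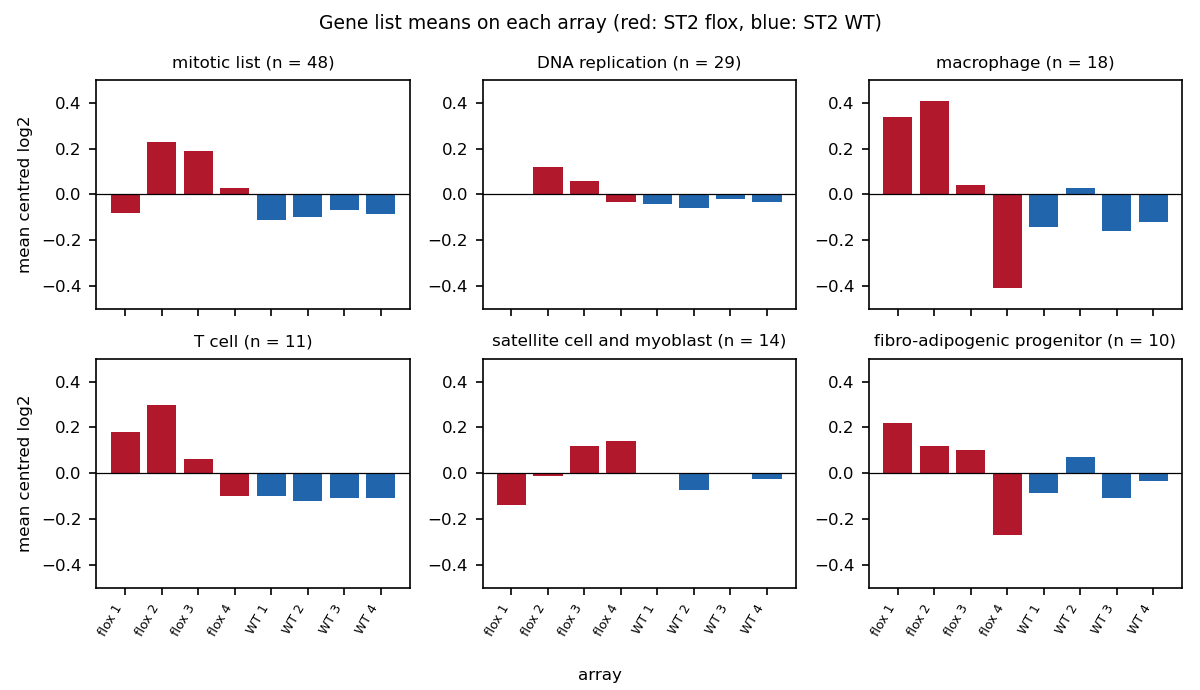
Mean of log2 values centred per gene (bars, from 0) for the mitotic list, DNA replication genes and markers of 4 cell types on each ST2 flox array (red) and ST2 WT array (blue). The mitotic list is highest on flox arrays 2 and 3 (0.23 and 0.19), macrophage markers on flox arrays 2 and 1 (0.41 and 0.34), and satellite cell and myoblast markers on flox arrays 4 and 3 (0.14 and 0.12).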

How the data were processed

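Each sample's RNA was read on its own Mouse Gene 1.0 ST array (Affymetrix). The authors deposited probeset intensity values made with RMA in Affymetrix Power Tools, per the submitters' processing notes. Versions, build and filters: not given in the sources used here. Values deposited as intensities are linear (5.81 to 19080), and their log2 was taken without a pseudocount. RMA assumes that most genes do not change and compresses differences of dim rows. For arrays, their number limits the precision.

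Of 24922 rows, 21425 had 1 gene symbol, 1399 several and 2098 none. Gene identifiers of 21347 rows were found in the RefSeq table of GRCm38.p6, and 0 symbols changed. Rows below the 25th percentile of mean log2 intensity (6.35) were left out, and the brightest row of each gene was kept. No pair of arrays shared more than 14 identical values.

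The comparison used limma 3.58.1 (R 4.3.3; group alone, empirical Bayes), with Benjamini-Hochberg adjustment over all 15007 genes and a threshold of 0.05. The fit was tested on simulated data. Differences are flox minus WT in log2 units, with limma's SE for genes and the SE over arrays for list means. Members and lists were chosen with earlier results of these data known. The rule for named genes took Knl1, Prc1 and Cdk1, the 2 members of each role group with the smallest unadjusted p and the 1 with the largest, and the 2 genes with the smallest p of each pathway list. Some pathway genes are given by their differences or ranges alone. Other genes named, Aurka, Kif4 and Cd3g with all values among them, were chosen after their values were seen. Alternatives were other filters (none and the 50th percentile), the mean of a gene's rows, quantile, cyclic loess and median normalization, a pseudocount of 16, blocks by sample number, a robust prior with trend, and each array left out.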

Additional observations from a re-analysis of the deposited data

Results flagged for a closer look

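Within each group of 4 arrays, a value counted as far from the others when its gap to the nearest, as a share of the group's range, passed Dixon's critical value. Of 82 groups of 4 examined, 4 held such a value, and chance gives about 1 in 20. The kinase Melk on ST2 flox array 1 was at 6.58, with the other flox arrays at 7.0 to 7.01. Aurkb on ST2 WT array 4 was at 8.01, with the other WT arrays at 7.88. The condensin subunit Ncaph on ST2 flox array 2 was at 7.35, with the other flox arrays from 7.03 to 7.08. Kif22 on ST2 flox array 3 was at 7.01, with the other flox arrays from 6.94 to 6.95. The cause of these values was not tested.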

How the results depend on the processing

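In limma, 0 members passed the adjusted threshold under every alternative tried. The list mean stayed between 0.14 and 0.24 log2 over the alternatives that alter it, which leave out the robust prior with trend. Of the values for lists and counts, 391 kept their direction and size, 76 moved and 1 reversed, and of those for single genes 605 kept and 15 reversed their direction. Row levels were lowest in the kinetochore group (median log2 6.66, against a filter at 6.35), which limits what can be said of it. Apart from fewer genes or samples where stated, the cause of a move was not tested. With the filter at the 50th percentile, fewer members were tested, 16 in place of 48. Of the 16, 14 had a higher mean and 10 an unadjusted p under 0.05, all higher (2.18% of all genes then). Counts at that p were then 0 for kinetochore, 1 for spindle and 1 for cytokinesis, with 1 member tested in each. They were 3 of 4 for chromosome structure, 4 for other mitosis, 1 for entry control and 1 for inhibitors. The spindle value, from 1 gene, was then 0.33, spindle minus kinetochore 0.23 and cytokinesis minus spindle -0.08.

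Numbers 1 and 2 alone, with fewer samples, gave 13 members at an unadjusted p under 0.05, 2 spindle, 3 cytokinesis, 2 chromosome structure and 7 replication genes, where 12.1% of all genes were higher at that p (2.03% with all arrays). Cytokinesis minus kinetochore was 0.22 and spindle minus kinetochore 0.14. Melk (-0.06), Cenpe (-0.01), Cenpf (-0.12), Birc5 (-0.08) and Incenp (-0.04) turned negative. Numbers 3 and 4 alone (1.15% of all genes) gave 16 members, 2 kinetochore, 2 spindle, 2 cytokinesis, 1 other mitosis, 2 entry control, 1 inhibitor and 1 replication gene. Those contrasts were 0.06 and 0.02, and Espl1 was 0.09. Espl1 was also 0.02 under quantile and cyclic loess normalization, and both, as well as no filter, gave 2 kinetochore members. Median centring gave 5 other mitosis genes. The inhibitor count was 1 with no filter, cyclic loess, a pseudocount of 16 or a robust prior with trend.

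Same-numbered arrays deviated together with correlations of -0.00174, 0.352, 0.253 and 0.0422 for numbers 1 to 4. Only 1 of 4 flox arrays correlated best with its own number. Whether same-numbered samples shared more than a number cannot be told from these values. With the replicate number as a block, 24 members had an unadjusted p under 0.05 (2.81% of all genes higher then). Higher means stood at 44, the list mean was 0.18, and the inhibitor count was 1. Numbers 1 and 2 against 3 and 4 as a block gave 7 entry control genes, where genes at that p over the whole table were 929 in place of 569.

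With each array left out in turn, members at an unadjusted p under 0.05 ranged from 10 to 35 higher and 0 to 1 lower, and higher means from 40 to 45. Counts ranged from 1 to 4 for kinetochore, 2 to 7 for spindle, 2 to 7 for cytokinesis, 4 to 6 for chromosome structure, 3 to 15 for other mitosis, 1 to 9 for entry control, 0 to 4 for inhibitors and 1 to 9 for replication. The share of all genes higher at that p was 0.96% with flox array 2 left out and 10.6% with flox array 4 left out, where the highest counts of these 4 pathway lists stood. Cenpf ranged from -0.06 to 0.08, Incenp from -0.02 to 0.04 and Espl1 from -0.07 to 0.04.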
